A study of Rattus norvegicus with 6 samples.

Results

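Hippo pathway and TEAD genes were followed in an ATAC-seq comparison of rat pancreatic islets at 10 days after birth (P10) and in adulthood. The count of Tn5 integrations in a region was the readout, and it is higher where nucleosomes leave the DNA free for this transposase. The accessible sites (ACS) of *Tead1*, *Tead2*, *Tead3*, *Tead4*, *Yap1*, *Wwtr1*, *Lats1*, *Lats2*, *Stk3* and *Vgll4* were taken as all regions that the annotation listed under these symbols as the nearest gene. This rule gave 70 of the 101603 ACS of the series, for 7 of the 10 genes. *Tead1* had 27 ACS, *Vgll4* 15, *Stk3* 11, *Yap1* 6, *Wwtr1* 6, *Tead3* 3 and *Lats1* 2. *Lats2* had 8 further ACS that carried its gene ID, 305922, beside a blank symbol, and these are described apart from the 70. No ACS was listed for *Tead2* or *Tead4*, by symbol or by gene ID.

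The libraries came from untreated Sprague-Dawley rats with no genetic modification mentioned. The Adult group held 3 libraries, each from the islets of 1 male of around 90 days, and the P10 group held 3 libraries, each from a few pooled pups of 1 litter, males and females, aged 10 days. Islet cells were dissociated and not sorted, so every library is a mixture of the cell types of the islet and of what was carried along with it. Age, sex, pooling and the way of digesting the pancreas differed together between the groups and cannot be told apart. Replicates 4, 5 and 6 are adults and replicates 1, 2 and 3 are P10.

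Hippo signalling is a kinase cascade that restrains growth. The kinases of the MST family, such as the product of *Stk3* (MST2), activate the LATS kinases, which phosphorylate the coactivators YAP (*Yap1*) and TAZ (*Wwtr1*) and so keep them out of the nucleus. In the nucleus YAP and TAZ have no DNA binding of their own and act through the TEAD factors, and VGLL4 competes with them for TEAD. In the pancreas YAP is known for its role in progenitors and exocrine cells, and for its loss as endocrine cells form.

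The annotation gave sequences for the promoters of 5 of the member genes, from RefSeq on the GRCr8 assembly, as 7 starts in all. The 250 bases before the start are shown for the genes on which the results below turn, 5′ to 3′ on the strand of the gene, with the TEAD core CATTCC or its complement GGAATG in capitals. The ACS themselves are given in Rn5 coordinates, and their sequences were not analysed here.
*Wwtr1*, chr2:143916942-143917191, minus strand: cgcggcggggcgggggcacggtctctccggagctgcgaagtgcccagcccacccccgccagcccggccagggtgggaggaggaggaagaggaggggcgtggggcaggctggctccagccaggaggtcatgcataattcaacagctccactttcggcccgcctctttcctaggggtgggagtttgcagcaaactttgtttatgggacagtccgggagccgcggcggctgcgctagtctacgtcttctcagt
*Yap1*, chr8:13451438-13451687, minus strand: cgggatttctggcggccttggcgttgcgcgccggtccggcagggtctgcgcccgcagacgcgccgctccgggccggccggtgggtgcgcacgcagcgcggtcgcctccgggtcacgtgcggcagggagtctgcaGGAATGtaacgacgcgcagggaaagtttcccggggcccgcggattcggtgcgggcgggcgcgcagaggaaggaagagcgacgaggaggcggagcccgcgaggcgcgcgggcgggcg
*Vgll4*, second of 3 starts, chr4:149710215-149710464, minus strand: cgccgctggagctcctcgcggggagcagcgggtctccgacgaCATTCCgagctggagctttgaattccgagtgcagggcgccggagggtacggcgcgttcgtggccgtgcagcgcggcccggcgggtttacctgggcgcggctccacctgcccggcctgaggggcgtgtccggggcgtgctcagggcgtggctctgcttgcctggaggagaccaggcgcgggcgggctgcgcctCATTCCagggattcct
The core was present, on either strand, in 2 of the 7 promoters and in 12.1% of the 33469 promoters of that length. In *Yap1* it began 116 bases before the start. In *Vgll4* it occurred at 208 and 16 bases before the second start. The *Wwtr1* promoter held none. A match is a description of these letters and not a binding site. The GC content was 66.4% in *Wwtr1*, 76.0% in *Yap1* and 72.4% at the second *Vgll4* start, against a median of 51.2% over all promoters. The outermost and innermost *Vgll4* starts, not shown, had 55.6% and 55.2% and held no core.

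The adult libraries held 7916919 to 11903909 integrations within ACS and the P10 libraries 13491534 to 21168463, with a median per ACS of 36 to 53 and 63 to 96. Relative to the total reads that the paper lists, each adult library held fewer integrations in ACS than each P10 library. This difference in share goes with age and cannot be told apart from it. Values are given as CPM, the counts of an ACS scaled to a common library size by the integrations in ACS and TMM factors, and differences as log2 fold changes of Adult over P10 with their standard error (SE) from edgeR. An ACS was called Up (more accessible in adults) or Down (more accessible at P10) at a p-value below 0.05 together with a Benjamini-Hochberg FDR below 0.2 over all ACS. These directions are relative to the bulk of the ACS. With the total reads of each library as its size, the median log2 fold change of all ACS was -0.84 in place of -0.01, and the member values moved down with it. Of the 7 member ACS called Up, 5 then lay between -0.41 and -0.073, below 0 but above that median, namely *Tead1* at 66968 bp, *Yap1* at 1082 and 24694 bp, and *Vgll4* upstream and at 75463 bp.

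Among the 70 ACS, 7 were called Up and 5 Down. The shares, 10% and 7.14%, stood beside 12.3% Up and 6.63% Down over all ACS. At the same limits the paper reports more Down than Up ACS, the reverse of this balance over all ACS, and the reason was not tested. Without the TMM factors the split of the 70 was 4 Up and 7 Down, with cyclic loess 5 Up and 8 Down, and with total reads 1 Up and 44 Down. An FDR below 0.05 left 3 Up and 2 Down. Leaving out 1 library gave 3 to 9 Up and 2 to 5 Down, the Up count being lowest without P10 replicate 2 or 3 and the Down count without P10 replicate 2. The median log2 fold change of the 70 was -0.07. All 3 adult libraries lay above all 3 P10 libraries at 10 ACS and below them at 6, where 13.8% and 10.9% of all ACS did so. These shares are near those of all ACS, so what follows describes single ACS and not a difference of the genes as a group. Of the 12 calls, 7 were in *Vgll4* and *Yap1*.

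**Figure D1:**
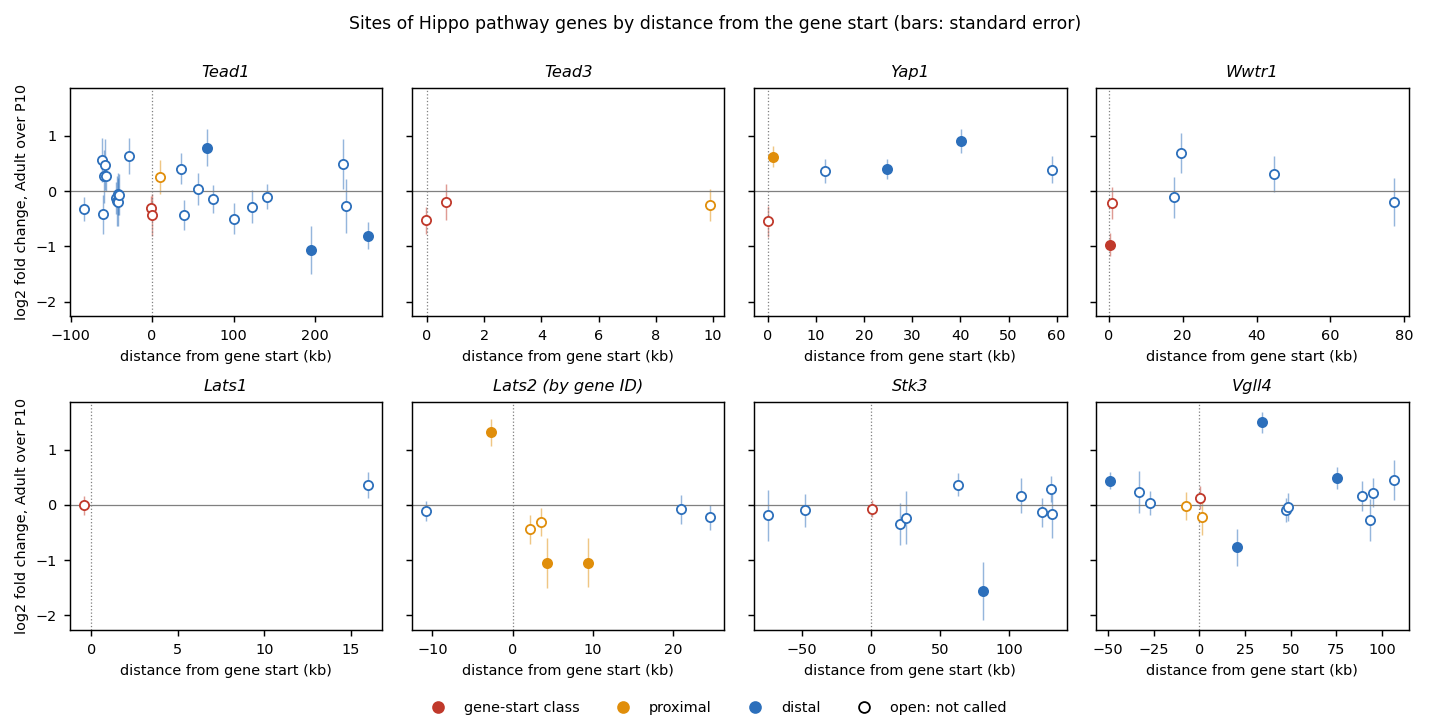
Log2 fold change of Adult over P10 (TMM scale, y axis) against the distance from the gene start in kb (x axis) for each ACS of 8 genes, with filled points for called ACS, colours for the distance class and bars for the SE. The *Yap1* ACS beyond the gene start lie above 0, with values from 0.36 to 0.90, the *Wwtr1* ACS at the gene start lies at -0.97, and the *Vgll4* ACS at 34.1 kb lies at 1.50.

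By listed distance, 10 of the 70 ACS fell in the TSS class, within 1000 bp of a gene start, 5 were proximal, up to 10000 bp, and 55 were distal. That distance runs to the edge of lower coordinate, which is the farther edge for ACS inside genes on the minus strand. The nearer edge lay 377 bp from the start for the proximal *Yap1* ACS at 1082 bp, called Up. It lay 971 bp from the start for the uncalled *Vgll4* ACS at 1252 bp. The TSS-class counts follow the class as listed. Of the 70, 37 were listed as inside the gene, and whether these lie in exons or introns was not determined. In the TSS class edgeR called 0 of 10 Up and 1 Down, against 2.73% and 7.87% of the 11055 ACS of that class. The Up count was also 0 at an unadjusted p-value below 0.05, with DESeq2, with limma voom and with cyclic loess. At that unadjusted limit 2 were lower in adults, one each of *Wwtr1* and *Tead3*. The median log2 fold change of the TSS-class ACS was -0.26 for the members and -0.10 for the class. The called ACS differed in level. The median over the 7 Up ACS was 21.8 CPM and over the 5 Down ACS 2.75 CPM, so that the Down calls, with the exception of *Wwtr1* and of *Tead1* at 265375 bp, rested on few integrations. Over all ACS the median log2 fold change also varied with level. It was -0.25 in the band around 0.86 CPM, 0.12 around 11.7 CPM and 0.04 around 45.0 CPM.

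**Figure D2:**
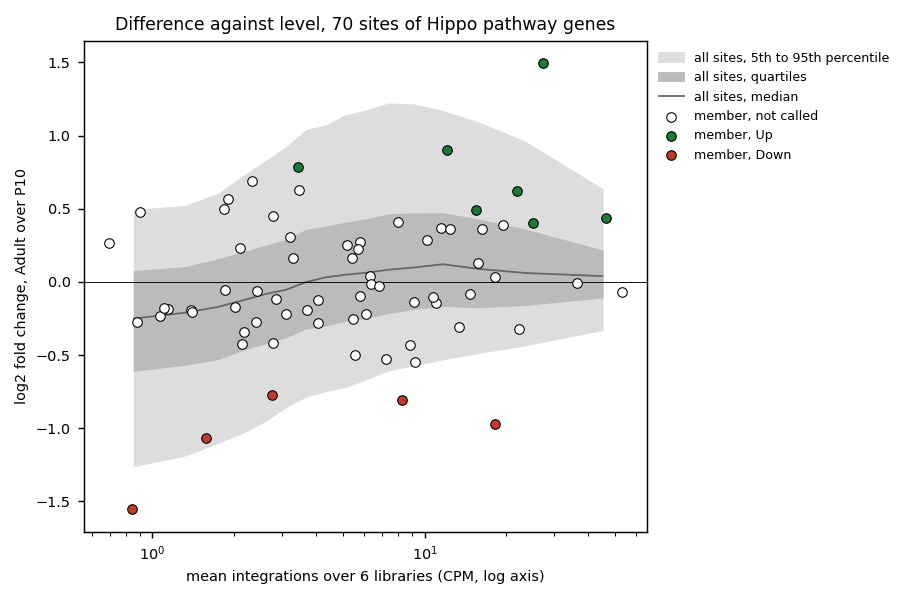
Log2 fold change of Adult over P10 (TMM scale, y axis) against the mean level over 6 libraries (CPM, log axis) for the 70 ACS, over bands that hold the quartiles and the 5th to 95th percentiles of all ACS at the same level. Most members lie inside the bands, and of the called ones *Vgll4* at 1.50, *Wwtr1* at -0.97, *Tead1* at -0.81 and *Stk3* at -1.55 lie outside the wider band.

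*Vgll4*, the TEAD cofactor that opposes YAP, carried the difference with the smallest p-value of the list. The ACS 34086 bp from its start, at chr4:210095568-210096007 (Rn5) inside the gene, held 44.5, 33.4 and 42.3 CPM in the adult libraries and 12.6, 16.3 and 13.8 CPM in the P10 libraries. No adult library fell below 33.4 CPM and no P10 library rose above 16.3 CPM. The log2 fold change was 1.50 (SE 0.19), a 2.82-fold higher level in adults, with an edgeR FDR of 5.4e-06. It ranked 209 of 101603 by p-value, remained called without each library in turn, and was the 1 member called Up with total reads as library sizes, at 0.67. Per kb of width it was at the 98.1 percentile of all distal ACS, at 61.7 CPM per kb.

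A wide ACS of 1675 bp upstream of *Vgll4*, at chr4:210178417-210180091, had 57.0, 50.9 and 53.0 CPM in adults and 40.1, 39.6 and 39.2 CPM at P10. The groups did not overlap, and the log2 fold change was 0.44 (SE 0.15, edgeR FDR 0.078). The call was lost without P10 replicate 2 (FDR 0.265) and without P10 replicate 3 (FDR 0.213). This ACS lies 48763 to 50437 bp upstream of the *Vgll4* start of Rn5. RefSeq places further *Vgll4* starts 49620 and 50592 bp upstream of the innermost start in GRCr8, one of them being the promoter shown above. Since the assemblies differ, whether the ACS covers these starts was not tested.

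The remaining Up ACS of *Vgll4*, 75463 bp from the start and 14664 bp beyond the end of the gene, held 17.7, 17.4 and 18.8 CPM in adults and 12.7, 14.6 and 11.2 CPM at P10, a log2 fold change of 0.49 (SE 0.20, edgeR FDR 0.147). It was called in 2 of the 6 fits without a library, and not without Adult replicate 4, Adult replicate 6, P10 replicate 2 or P10 replicate 3. Column sums (FDR 0.224) and cyclic loess (FDR 0.249) also ended the call. One ACS of the gene was called Down. At 20354 bp from the start it held 2.08, 1.95 and 2.06 CPM against 3.63, 4.07 and 2.75 CPM, a log2 fold change of -0.77 (SE 0.34, edgeR FDR 0.178), and of the 6 fits without a library it was called only in that without P10 replicate 3. Neither limma voom (FDR 0.227) nor cyclic loess (FDR 0.215) called it. The ACS at the *Vgll4* gene start, at chr4:210129504-210129908, was not called. It had 20.0, 14.4 and 14.7 CPM in adults and 15.3, 15.5 and 14.2 CPM at P10, a log2 fold change of 0.13 (SE 0.21), which turned to -0.04 without Adult replicate 4. The other 10 *Vgll4* ACS ranged from -0.27 to 0.45 and none was called.

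The ratio of 2 ACS within a library does not depend on its size. At *Vgll4* the ACS 34086 bp from the start held 2.23, 2.32 and 2.88 times the CPM of the gene-start ACS in adults and 0.818, 1.06 and 0.970 times at P10. The ratio was higher in each adult library than in each P10 library. The exact two-sided permutation test gave p = 0.1, the smallest value that 3 against 3 libraries allow. For the wide upstream ACS the ratio was 2.86, 3.53 and 3.61 in adults and 2.61, 2.56 and 2.75 at P10, with the same exact p of 0.1. Both numerators are ACS called Up, and these ratios were chosen after the values of the ACS had been seen. They are therefore no separate evidence beside those calls.

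*Yap1*, which encodes the coactivator YAP, had 3 ACS called Up and 0 Down of 6 with edgeR (0 Down also at an unadjusted p-value below 0.05 and with DESeq2). The ACS 40123 bp from the start, at chr8:6162095-6162605 inside the gene, held 16.4, 13.1 and 17.7 CPM in adults and 8.13, 8.56 and 8.51 CPM at P10. The P10 libraries lay close together, and the adult libraries were all higher, by 1.87-fold (log2 0.90, SE 0.22, edgeR FDR 0.0078). The proximal ACS 1082 bp from the start, at chr8:6201136-6201841, held 30.7, 22.9 and 25.7 CPM in adults and 19.7, 15.8 and 15.9 CPM at P10, a log2 fold change of 0.62 (SE 0.19, edgeR FDR 0.038). Both were called without each library in turn. The nearer edge of the ACS at 1082 bp lies 377 bp from the start, so its proximal class follows the listed distance. The ACS 24694 bp from the start, with 31.5, 25.5 and 28.2 CPM against 18.1, 22.5 and 23.9 CPM, only just met the limits, with a log2 fold change of 0.40 (SE 0.18, edgeR FDR 0.199). It was called in 1 of the 6 fits without a library, the one without Adult replicate 5, and it lost the call with median-of-ratios factors (FDR 0.214), DESeq2 (FDR 0.235), column sums (FDR 0.310) and cyclic loess (FDR 0.299). With total reads as library sizes the ACS at 1082 bp and 24694 bp changed sign, to -0.23 and -0.41, both still above the median of -0.84 of all ACS, and the ACS at 40123 bp fell to 0.06.

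The remaining ACS inside *Yap1* were not called and had positive estimates, 0.36 (SE 0.22) at 11848 bp and 0.39 (SE 0.24) at 59089 bp. The latter held 25.4, 12.4 and 28.5 CPM in adults and was called without Adult replicate 5, the lowest of them (log2 0.68, edgeR FDR 0.0415). The gene-start ACS, at chr8:6202199-6202740, had the opposite sign. It held 3.98, 8.28 and 10.3 CPM in adults and 9.16, 11.8 and 11.7 CPM at P10, a log2 fold change of -0.55 (SE 0.28, edgeR FDR 0.253). The groups overlapped, and Adult replicate 4 was the lowest library. This ACS was called Down with limma voom (FDR 0.168), cyclic loess (FDR 0.145), column sums (FDR 0.174) and total reads (FDR 0.0031), and also without Adult replicate 6 (FDR 0.0925) and without P10 replicate 1 (FDR 0.177). The 5 ACS inside the gene together held 30.3, 10.5 and 10.9 times the CPM of the gene-start ACS in adults and 7.81, 6.05 and 6.94 times at P10 (exact permutation p = 0.1). The ratio of 30.3 belongs to Adult replicate 4, whose gene-start value was low. The numerator includes the ACS called Up, and the ratio was chosen after the values had been seen, so it is no separate evidence.

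*Wwtr1*, which encodes TAZ, differed in the other direction, at its gene start. The ACS over the start, at chr2:167101027-167102178, held 11.7, 13.5 and 11.3 CPM in adults and 19.6, 29.1 and 23.4 CPM at P10. No adult library reached the lowest P10 library. The level was 1.96-fold higher at P10 (log2 fold change -0.97, SE 0.21, edgeR FDR 0.0025), and the ACS was called Down without each library in turn. It was the only called ACS of the 10 TSS-class ACS. The second TSS-class ACS of *Wwtr1*, 945 bp from the start, held 4.34, 4.97 and 7.73 CPM in adults and 4.65, 7.63 and 7.40 CPM at P10, and the groups overlapped (log2 fold change -0.22, SE 0.29). The 4 ACS further inside the gene had estimates from -0.20 to 0.69, all uncalled, with that at 19416 bp being called Up without Adult replicate 5 (FDR 0.172). The ratio of these 4 ACS to the gene-start ACS was 0.946, 0.777 and 0.852 in adults and 0.496, 0.316 and 0.359 at P10 (exact permutation p = 0.1), each adult library being above each P10 library. Its denominator is the ACS called Down, and it was chosen after the values had been seen. This ratio is therefore no separate evidence beside that call.

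**Figure D3:**
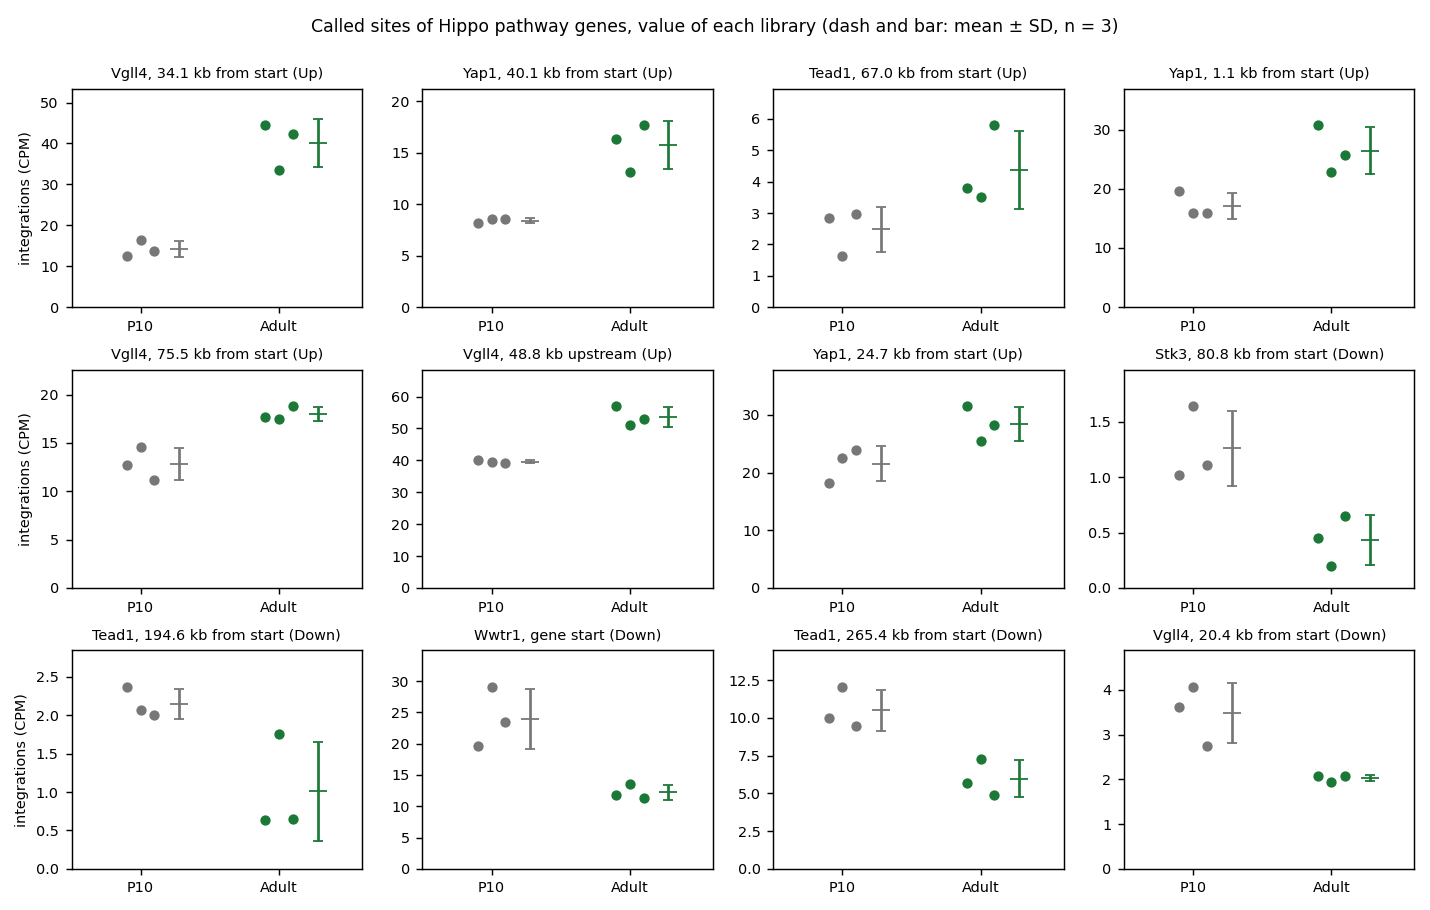
Level of each called ACS (CPM, linear y axis from 0) in each P10 and Adult library, with the mean and SD beside the 3 points. The groups do not overlap in any of the 12 panels, and the levels run from below 2 CPM at *Stk3* 80.8 kb to above 50 CPM in adults at the wide *Vgll4* ACS upstream. The panels show ACS picked by their call between these same libraries, so the separation follows largely from the choice. Over all ACS 13.8% had every adult library above and 10.9% below.

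*Tead1*, a TEAD factor that binds DNA, held the most ACS, from 83699 bp upstream to 265375 bp from the start, and 24 of its 27 were not called. The ACS at 265375 bp, at chr1:184738747-184739212, lies 55708 bp beyond the end of the gene. It held 5.69, 7.30 and 4.90 CPM in adults and 9.99, 12.1 and 9.46 CPM at P10, all adult libraries being lower, with a log2 fold change of -0.81 (SE 0.25, edgeR FDR 0.0387). It stayed called without each library in turn. The ACS 194605 bp from the start was called Down from 7, 18 and 5 integrations in adults and 51, 29 and 38 at P10 (log2 fold change -1.07, SE 0.43, edgeR FDR 0.136). Of the fits that left out a library, only that without Adult replicate 5 kept the call. The ACS 66968 bp from the start was called Up, with 3.80, 3.51 and 5.80 CPM against 2.84, 1.64 and 2.96 CPM (log2 fold change 0.78, SE 0.33, edgeR FDR 0.158), but not with column sums (FDR 0.224) or without Adult replicate 6, P10 replicate 2 or P10 replicate 3. At the gene start, both TSS-class ACS had overlapping groups. The larger, at chr1:184472562-184473688, held 10.8, 14.6 and 10.6 CPM in adults and 16.1, 16.4 and 12.2 CPM at P10 (log2 fold change -0.31, SE 0.22), and the smaller had -0.43 (SE 0.38). A group of 10 ACS between 62149 and 40521 bp upstream was of low level and had estimates from -0.42 to 0.57, none called. The 24 uncalled *Tead1* ACS ranged from -0.50 to 0.63, and 5 of them were called in a fit that left out Adult replicate 4 or P10 replicate 1.

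*Tead3*, another TEAD gene, had 3 ACS, and edgeR called 0 of them (1 had an unadjusted p-value below 0.05). At its gene start, chr20:10131339-10131713, the adult libraries held 6.05, 6.04 and 5.54 CPM and the P10 libraries 8.18, 8.56 and 8.78 CPM. The groups were well apart, but the log2 fold change of -0.53 (SE 0.25) had an edgeR FDR of 0.206, just outside the limit. It was called Down by edgeR with median-of-ratios factors (FDR 0.189), column sums (FDR 0.108), total reads (FDR 0.0027) or a filter on low counts (FDR 0.196), by DESeq2 (FDR 0.175) and cyclic loess (FDR 0.0824), and without P10 replicate 1 (FDR 0.196), but not by limma voom (FDR 0.226). The ACS 665 bp from the start had -0.19 (SE 0.33), which turned to 0.12 without P10 replicate 1, and the ACS 9899 bp from the start had -0.25 (SE 0.28).

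Among the kinases, the gene-start ACS showed little difference between the ages. That of *Stk3*, at chr7:74054806-74055683, had the highest mean CPM of the list, not scaled for its width, with 55.1, 44.9 and 55.2 CPM in adults and 47.9, 57.7 and 57.2 CPM at P10. The estimate was -0.07 (SE 0.16). The gene-start ACS of *Lats1*, at chr1:3480404-3481591, held 42.8, 32.4 and 33.5 CPM in adults and 41.2, 31.4 and 36.9 CPM at P10, and its log2 fold change of -0.01 (SE 0.17) changed sign when single libraries were left out. The other *Lats1* ACS, 15993 bp from the start, had 0.37 (SE 0.23, edgeR FDR 0.397). Of the 11 *Stk3* ACS, 1 was called, 80810 bp from the start inside the gene, from 5, 2 and 5 integrations in adults and 22, 23 and 21 at P10. Its log2 fold change was -1.55 (SE 0.53, edgeR FDR 0.063), and the call was lost without Adult replicate 5 (FDR 0.2002) and without P10 replicate 2 (FDR 0.246). DESeq2 gave it no adjusted p-value. The other 10 *Stk3* ACS ranged from -0.34 to 0.36.

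*Lats2*, found by gene ID, had no TSS-class ACS and 1 Up and 2 Down of 8. Upstream of the gene, 2637 bp before the start at chr15:41831503-41831785, an ACS held 18.7, 13.0 and 13.8 CPM in adults and 5.48, 8.13 and 4.81 CPM at P10. Each adult value exceeded each P10 value, by 2.49-fold on average (log2 fold change 1.31, SE 0.25, edgeR FDR 0.00077), and the ACS was called without each library in turn. Both Down ACS lay inside the gene and rested on 7 to 14 integrations per adult library. At 4342 bp the log2 fold change was -1.05 (SE 0.44, edgeR FDR 0.156), called in 2 of the 6 fits and not without Adult replicate 4, Adult replicate 6, P10 replicate 2 or P10 replicate 3. At 9440 bp it was -1.04 (SE 0.44, edgeR FDR 0.157), called in 3 of the 6 fits and not without Adult replicate 4, P10 replicate 2 or P10 replicate 3. The other 5 ranged from -0.44 to -0.08.

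To compare genes without counting the ACS of a gene as replicates, the CPM of all ACS of a gene were summed in each library. For *Vgll4* the sum was 198 ± 19.6 CPM in adults and 152 ± 5.47 CPM at P10 (SD, n = 3 each), and for *Yap1* it was 114 ± 16.4 and 85.7 ± 6.32 CPM. In both genes every adult library was above every P10 library, with log2 ratios of 0.38 and 0.41, which became -0.45 and -0.42 with total reads as library sizes, above the -0.84 of all ACS. For *Wwtr1* the sum was 28.3 ± 0.982 CPM in adults and 39.7 ± 6.01 CPM at P10, and for *Tead3* 14.3 ± 0.280 and 18.4 ± 1.08 CPM, with every adult library below every P10 library. Their log2 ratios were -0.49 and -0.36. Without the TSS-class ACS the *Wwtr1* log2 ratio was 0.20. The exact permutation p was 0.1 for each of these 4 genes, the smallest the design allows, and 0.2 after Benjamini-Hochberg adjustment over the 8 genes. The sums of *Vgll4*, *Yap1* and *Wwtr1* include their called ACS and are no separate evidence beside those calls. Likewise the *Tead3* sum includes its gene-start ACS, described above, and is no separate evidence beside it. For how many genes of the series such sums separate the ages was not counted. The sums of *Tead1*, *Lats1*, *Lats2* and *Stk3* overlapped between the ages, with log2 ratios of -0.14, 0.08, -0.02 and 0.01 and exact permutation p from 0.6 to 0.9. The sign of the last 3 changed when single libraries were left out.

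**Figure D4:**
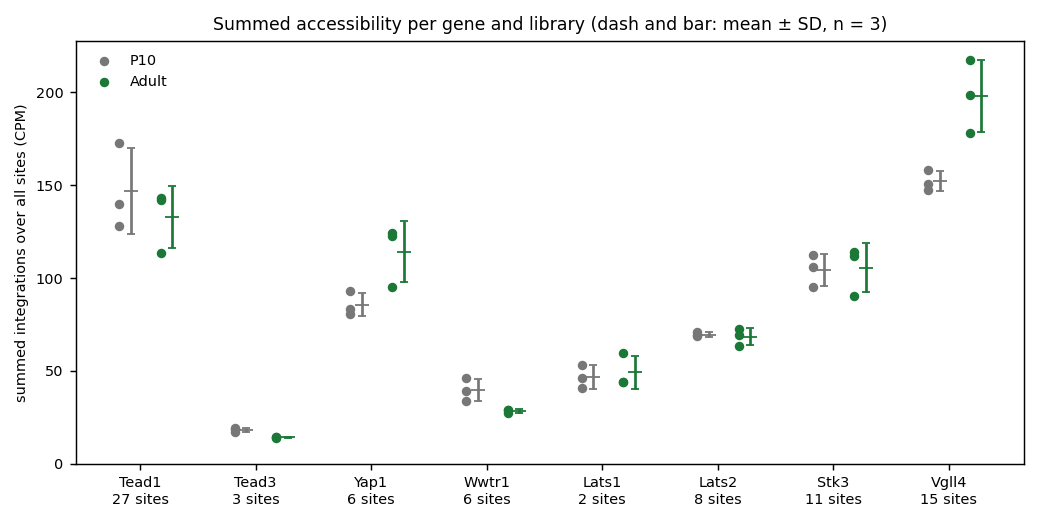
Summed CPM of all ACS of each gene (TMM scale, y axis from 0) in each library of P10 (grey) and Adult (green), with the mean and SD (n = 3). *Yap1* and *Vgll4* are higher in every adult library, *Wwtr1* and *Tead3* are lower, and the other 4 genes overlap.

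The other genes of the pathway were read from a list of 23 upstream and core genes, such as the adaptors, the kinases of the MAP4K and TAO families and the junction proteins, and a list of 10 genes commonly used as YAP and TEAD targets. Of these, 18 and 10 had an ACS. Among the 138 ACS of the upstream and core genes 15 were called Up and 9 Down (10.9% and 6.52%), and among the 132 ACS of the targets 18 were called Up and 16 Down (13.6% and 12.1%), beside the same 12.3% and 6.63% of all ACS. The median log2 fold change was -0.04 in both lists. The 33 Up and 25 Down of both lists together became 24 and 37 with column sums, 23 and 32 with cyclic loess and 2 and 169 with total reads, so the larger side depended on the scaling. They fell to 20 and 13 without Adult replicate 4, 19 and 11 without P10 replicate 2 and 18 and 12 without P10 replicate 3. In the TSS class edgeR called 0 of the 26 ACS of both lists Up and 5 Down, beside 2.73% and 7.87% of all ACS of that class, and the Up count was also 0 at an unadjusted p-value below 0.05, with DESeq2 and with limma voom.

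Of the targets, *Cyr61* and *Ctgf*, which encode secreted matricellular proteins, had called TSS-class ACS. At the start of *Cyr61*, the ACS at chr2:270058678-270059103 held 5.06, 7.99 and 8.64 CPM in adults and 12.1, 13.6 and 13.4 CPM at P10. The log2 fold change was -0.86 (SE 0.24, edgeR FDR 0.0227), with the adult libraries all lower, and it was called without each library in turn. A neighbouring ACS 887 bp from the start had -0.57 (SE 0.23, edgeR FDR 0.127) and kept its call only in the fits without Adult replicate 5 or P10 replicate 1. Of the 8 *Cyr61* ACS, 6 were called Down and 0 Up, and the Up count was 0 also at an unadjusted p-value below 0.05 and with DESeq2 and limma voom. How the *Cyr61* Down calls outside the TSS class fared without single libraries is not given here. At the start of *Ctgf* the ACS held 4.07, 7.79 and 7.61 CPM in adults and 8.79, 10.1 and 10.6 CPM at P10, a log2 fold change of -0.61 (SE 0.26, edgeR FDR 0.167), and the call was lost without Adult replicate 4 (-0.35), P10 replicate 2 or P10 replicate 3. The 21 *Ctgf* ACS included 5 Up and 4 Down. *Ptpn14*, a phosphatase gene that restrains YAP, had an ACS 790 bp upstream with 0.452, 1.07 and 0.387 CPM in adults and 2.65, 3.49 and 2.43 CPM at P10 (log2 fold change -2.12, SE 0.45, edgeR FDR 0.0023). The adult values of this ACS rested on few integrations. An ACS over the *Ptpn14* start had -0.56 (SE 0.22, edgeR FDR 0.127) and was called in 2 of the 6 fits without a library. The Up ACS with the smallest p-value lay 65403 bp upstream of *Nt5e*, which encodes an ectonucleotidase, with 15.6, 12.8 and 9.28 CPM in adults and 2.88, 2.85 and 2.96 CPM at P10 (log2 fold change 2.12, SE 0.26, edgeR FDR 5.6e-06). Of the 13 *Nt5e* ACS, 5 were Up and 0 Down, the latter also at an unadjusted p-value below 0.05 and with the other tools.

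In whole islets, fewer cells of a type and less accessibility per cell cannot be told apart. The summed CPM of TSS-class ACS was therefore read for markers of the cells present. For beta cells (5 of 6 genes with such an ACS) it was 135 to 177 in adults and 177 to 297 at P10, and for alpha cells (3 of 4) 54.4 to 71.8 and 57.2 to 70.4. For duct cells (4 of 6) it was 31.4 to 34.7 and 36.6 to 42.4, for acinar cells (3 of 8) 18.4 to 27.1 and 24.2 to 29.3, for mesenchyme (4 of 8) 15.5 to 22.3 and 20.4 to 24.9, and for endothelium (2 of 6) 23.5 to 31.7 and 28.9 to 35.5. For immune cells 1 of 6 genes, *Cd74*, had one, at 26.4 to 36.7 in adults and 15.9 to 17.6 at P10. Of the duct ACS summed here 1 was called Up and 1 Down, and of the beta ACS 0 Up and 2 Down. The beta and duct sums were lower in every adult library, in the direction of the gene-start ACS of *Wwtr1*, *Tead3* and *Cyr61*. That of *Cd74*, a single gene, was higher. The Up ACS of *Vgll4*, *Yap1* and *Lats2* lay outside the TSS class, which these sums do not cover. The gene-start ACS of *Vgll4* had a log2 fold change of 0.13 and that of *Yap1* -0.55, neither called. For beta cells the highest adult sum (176.8) lay just below the lowest P10 sum (177.2). The TSS class as a whole leaned the same way as the beta and duct sums. Of its 11055 ACS, 1723 were lower in every adult library and 579 higher, with a median log2 fold change of -0.10. The part of the cell types present in these differences was not tested.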

How the data were processed

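ATAC-seq libraries of 3 adult and 3 P10 rat islet preparations were analysed from 1 table. According to the study's methods and the submitters' processing notes, the authors checked reads with FastQC 0.11.2, aligned them to Rn5 with BWA 0.7.13, removed reads that were mitochondrial or mapped poorly (SAMtools 1.3), called peaks with MACS2 2.1.1 on the concatenated libraries of each age, joined both sets and counted Tn5 integrations with pyDNase. Whether PCR duplicates were removed is not given in the sources used here. The values used are the deposited counts of integrations per ACS and library, whole numbers without normalization. Peaks were called on pooled libraries, so an ACS does not show in how many libraries it was detected. The table also holds the authors' own log2 fold changes, p-values and related columns of their comparison, which were not used.

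Of 101941 entries, 338 repeat an ACS, and 101603 were counted once. A blank symbol stood in 6899 entries, of which 6707 were named by gene ID from the RefSeq gene table, and the 8 of *Lats2* were kept apart. Counts were tested with the quasi-likelihood test of edgeR 4.0.16 in R 4.3.3, with TMM factors (0.93 to 1.04), age as the only term, no filter on low counts, and Benjamini-Hochberg adjustment over all ACS. The SE was the absolute log2 fold change divided by the square root of F. Sums per gene and ratios were compared by exact two-sided permutation tests over libraries (SciPy 1.17.1), which cannot give less than 0.1. The p-values of edgeR rest on the spread between these libraries, moderated by a trend over all ACS. That spread is between single rats in adults and between pools of pups at P10. The number of integrations limits the precision, most of all in the adult libraries.

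On counts simulated with the means and sizes of these 101603 ACS, with 200 changed by 1 on the log2 scale, 35% of the changed ACS were called in the right direction, 83.5% had p below 0.05 and the right sign, and 17 unchanged ACS were called. When nothing was changed 0 were called. With 200 changed ACS an FDR below 0.2 demands a smaller p-value than in the data, where 19242 ACS were called. The 35% therefore does not give the sensitivity of the calls above. The spread was simulated from the trend of the dispersion alone.

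The ACS described are all called ACS of the member genes, all their TSS-class ACS, the ACS with the smallest p-value of a gene without a call, and the most accessible ACS per class. From the other pathway genes they are the genes with called TSS-class ACS and the smallest p-value in each direction. The members, lists and ratios were chosen with earlier results of these data known. Alternatives were median-of-ratios factors, column sums, total reads, DESeq2 1.42.0, limma 3.58.1 (voom, and cyclic loess with limma-trend), an expression filter, every entry kept, an FDR below 0.05, a limit of 100 kb, TSS-class ACS left out, and leaving out each library. Adding the *Lats2* ACS was chosen after seeing the data. Promoter sequences are from RefSeq (GRCr8). Plots were made in Python 3.11.15 with matplotlib 3.10.9.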

Additional observations from a re-analysis of the deposited data

How the results depend on the processing

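No paired analysis was possible because the adult libraries carry the numbers 4, 5 and 6 and the P10 libraries 1, 2 and 3, so the groups share no number. The scaling mattered most. When column sums replaced TMM the median of all ACS was -0.10, 4 member ACS were Up, 10732 of all ACS were Down, and the sums of *Lats1* and *Stk3* became -0.018 and -0.083. With total reads the median was -0.84, and the Up and Down counts were 1 and 44 of the members, 2 and 169 of the other pathway genes and 1062 and 61663 of all ACS. The sums of *Yap1*, *Vgll4*, *Lats1* and *Stk3* then became -0.42, -0.45, -0.77 and -0.81. ACS that changed sign with it were *Tead1* at 66968 bp (-0.073), *Yap1* at 1082 bp (-0.23) and 24694 bp (-0.41), *Lats1* at 15993 bp (-0.49), and *Vgll4* upstream (-0.40), at 75463 bp (-0.35) and at its start (-0.71). All of these lay above -0.84. Cyclic loess gave 8 Down members and -0.014 at the *Vgll4* start. The median-of-ratios factors, voom and the filter on low counts left the member counts within 1.5 times of 7 Up and 5 Down, as did DESeq2 (6 Up, 5 Down). With an FDR below 0.05, 3 members were Up and 2 Down, 15 and 6 of the other pathway genes, and 7177 and 1945 of all ACS. Without its TSS-class ACS the *Wwtr1* sum was 0.20. With the *Lats2* ACS added, 8 were Up and 7 Down.

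Leaving out 1 library gave 3 to 9 Up and 2 to 5 Down members, 18 to 35 and 11 to 26 of the other pathway genes, and 7973 to 13232 and 3285 to 7215 of all ACS. The member Up count fell to 4 without Adult replicate 6 and to 3 without P10 replicate 2 or 3, and the Down count to 3 without Adult replicate 5 and 2 without P10 replicate 2. The sums of *Lats1* ranged from -0.077 to 0.19, of *Lats2* from -0.067 to 0.032 and of *Stk3* from -0.049 to 0.11. The estimates at the starts ranged from -0.15 to 0.074 for *Lats1*, from -0.16 to 0.024 for *Stk3* and from -0.045 to 0.21 for *Vgll4*, and that at *Tead3* 665 bp from the start reached 0.12. Of 285 values for 22 member ACS under the alternatives, 216 kept direction and call, 36 lost the call, 19 gained it and 14 changed sign. The cause was not tested.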
